A study of Mus musculus with 2 samples.

Results

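The cells described here are fibro/adipogenic progenitors (FAPs) of mouse limb muscle that carried RNA of Spon1, Cldn2, Hsd11b2 or Angpt4 and whose Cxcl14, Dpp4-type and adipocyte-type RNA lay under set limits. They were chosen on their own UMIs, the unique molecular identifiers that count RNA molecules. A cell was a member if it held 2 or more UMIs of those 4 gate genes together. It also had to hold under 25 UMIs of Pi16, Sema3c, Anxa3 and Efemp1 per 10000 UMIs (hereafter P), under 5 UMIs of Cxcl14 per 10000, and under 3 UMIs of Adipoq, Plin1, Plin4, Car3, Fabp4 and Pparg together. This gave 895 members among 8481 cells. The study sorted living cells without CD45, CD31 and Vcam1 and with Sca1 from limb muscles of 3-week-old mice. The sample labels give the strain as C57BL/6, and the study's methods name a C57BL/6J background. There was 1 single-cell library per genotype. One library, labelled WT, came from Bap1f/f mice (Bap1WT), and the other, labelled cKO, from Prx1-Cre;Bap1f/f mice (Bap1ΔMPC), so both groups carried the floxed Bap1 alleles, and Prx1-Cre deletes them in limb mesenchyme rather than in FAPs alone. The number of mice behind each library was not given in the sources used here. With 1 library per genotype there was no test, and every interval below is a 95% interval that covers counting error only, not the spread between mice. The library labelled WT held 4103 cells and 51015705 UMIs, and the library labelled cKO held 4378 cells and 49540066 UMIs, with medians of 12232 and 11017.5 UMIs per cell. The libraries shared 5 cell barcodes, none of them a member.

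FAPs are the mesenchymal cells between the fibres of skeletal muscle. They lay down collagen, support muscle stem cells and nerve endings, and can become fat or scar. In mouse muscle they divide into a Dpp4-type, which also carries Pi16 and Sema3c, and a Cxcl14-type. Of the gate genes, Spon1 encodes F-spondin, a secreted matrix protein first studied in axon guidance. Hsd11b2 encodes the enzyme that inactivates corticosterone, Angpt4 a ligand of the Tie2 receptor, and Cldn2 a claudin of leaky epithelial tight junctions. Bap1 is a nuclear deubiquitinase.

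The RNA of the targeted gene was not lower in the library labelled cKO. Levels are given as CPM, the UMIs of a gene per 1000000 UMIs of the cells summed. Bap1 stood at 17.6 CPM in all cells of the library labelled WT and at 21.6 in the library labelled cKO. In members it was at 14.3 (56 UMIs) and 20.9 (150 UMIs), a log2 ratio of 0.54 (0.09 to 1.01). A count of 3′ ends per gene does not show whether the floxed exons were present, so Bap1 RNA could not check the genotype, and the libraries are called by their labels. Members had the general marks of FAPs in both libraries: Pdgfra, the receptor used to define these cells, was at 322 and 325 CPM, and Ly6a, which encodes the sorted Sca1, at 1234 and 1600. The leukocyte gene Ptprc had no UMI in members of either library. The sort had selected all cells for Sca1 and against CD45, which Ptprc encodes, so these marks do not set members apart. The other cells with P under 25 had Pdgfra at 395 and 359 CPM, Ly6a at 1236 and 1603, and no Ptprc UMI.

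Of the 5 genes by which these cells had been named, Saa3 had no UMI in members labelled WT and was not higher in members labelled cKO than in other cells, and Cldn2 was rare. Saa3, an acute-phase serum amyloid gene that was not part of the gate, had 0 UMIs in the 280 members of the library labelled WT. The floor of 3 counts stands at 0.768 CPM there, and the interval of the level reached up to 0.944. Members of the library labelled cKO had 82 Saa3 UMIs, 55 of them in a single cell, and stood at 11.4 CPM against 15.1 in the other cells with P under 25. Cldn2 was found in 7 members (2.50%) of the library labelled WT and in 44 (7.15%) of the library labelled cKO. Spon1 was found in 64.6% and 75.3% of members, Hsd11b2 in 39.3% and 58.2%, and Angpt4 in 21.4% and 15.6%. These shares were set by the gate and are a description of it. The cells are called members here, by their rule. The limits capped Dpp4-type RNA without removing it: Pi16 was found in 65.4% and 32.2% of members, at 275 and 101 CPM against 290 and 167 in the other cells with P under 25.

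Members made up 280 of 4103 cells (6.82%, 6.07 to 7.64%) in the library labelled WT and 615 of 4378 cells (14.0%, 13.0 to 15.1%) in the library labelled cKO. Members held more UMIs than the cells they came from. Their median was 14145 UMIs in the library labelled WT against 11636 in the other cells with P under 25, and 11489 against 10630.5 in the library labelled cKO. When every cell was thinned to 6000 UMIs, which dropped 224 and 382 shallower cells, the shares were 2.94% and 9.78%. Just outside the gate, 338 cells of the library labelled WT and 358 of the library labelled cKO met every limit with 1 gate UMI, and just inside it 131 and 162 members had 2. Members with 5 or more gate UMIs numbered 57 (20.4% of members) and 289 (47.0%), and those with 10 or more numbered 5 and 121. The median was 3 gate UMIs per member in the library labelled WT and 4 in the library labelled cKO, values that the gate shaped.

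Gate-gene RNA was not confined to members. In cells with P of 25 or more, 21 of 1050 (2.00%, 1.24 to 3.04%) in the library labelled WT had 2 or more gate UMIs. In the library labelled cKO 54 of 1251 (4.32%, 3.26 to 5.59%) had as many. The cells with P of 25 or more had median depths of 13635 and 11661 UMIs. Among cells with P under 25 and Cxcl14 of 5 or more per 10000, adipocyte-type cells left out, the share was 23.5% (133 of 566) and 62.4% (595 of 953). Among the few adipocyte-type cells it was 22.2% (4 of 18) and 80.6% (104 of 129). In each library the share was therefore higher in the Cxcl14-rich cells than in the cells that could become members, of which 11.3% and 30.1% did. Of all gate-positive cells with P under 25, 32.9% (137 of 417) in the library labelled WT and 53.2% (699 of 1314) in the library labelled cKO fell outside the members. The larger share in the library labelled cKO was seen in each of these classes (shown in the plot of gate-positive cells by class), and the limits on Cxcl14 and adipocyte genes decided which of these cells were counted as members. Without both limits the shares were 10.2% and 30.0% of all cells.

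**Figure D1:**
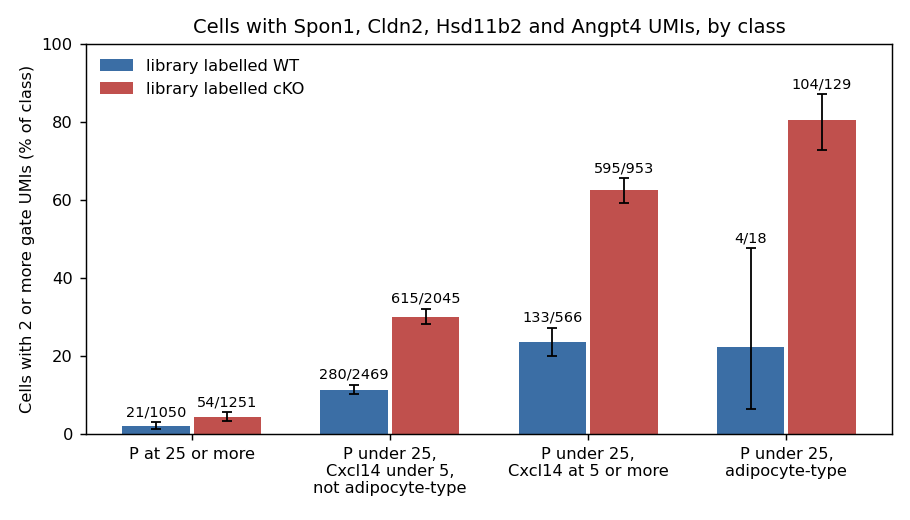
Share of cells with 2 or more UMIs of Spon1, Cldn2, Hsd11b2 and Angpt4 (y axis, % of the class) in 4 classes of cells (x axis), with exact 95% binomial intervals for counting error and the cell numbers above each bar. The gate-positive cells of the second class, those within the limits on P, Cxcl14 and adipocyte genes, are the members; in every class the bar of the library labelled cKO stood above that of the library labelled WT, with 2.00% against 4.32% in cells with P of 25 or more, 23.5% against 62.4% in Cxcl14-rich cells and 22.2% against 80.6% in adipocyte-type cells.

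The gate genes themselves were at these levels, given as CPM and fixed by the gate. Spon1 was at 151 in members and 14.0 in other cells with P under 25 of the library labelled WT, and at 368 and 164 in the library labelled cKO. Hsd11b2 was at 60.9 and 12.1, and at 141 and 67.5. Angpt4 was at 31.0 and 4.06, and at 36.7 and 11.02. In Cxcl14-rich gate-positive cells, chosen on the same UMIs, Spon1 was at 162 and 477 and Hsd11b2 at 111 and 207 in the libraries labelled WT and cKO.

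How often the gate genes were found together is described by taking 1 gene at a time, in cells with P under 25 thinned to 6000 UMIs. In the library labelled WT, 9 of 96 cells with 2 or more Spon1 UMIs (9.38%, 4.38 to 17.1%) had a Hsd11b2 UMI, against 8.18% (7.16 to 9.29%) of the 2617 cells without Spon1. In the library labelled cKO, 271 of 635 Spon1 cells (42.7%, 38.8 to 46.6%) had a Hsd11b2 UMI, against 18.6% (16.8 to 20.5%) of the 1828 cells without Spon1. Angpt4 was found in 9.38% of Spon1 cells against 2.83% of cells without Spon1 in the library labelled WT, and in 8.66% against 3.83% in the library labelled cKO. Cldn2, though rare, was found in 5.21% of Spon1 cells against 0.229% of cells without Spon1 in the library labelled WT, and in 4.25% against 1.59% in the library labelled cKO. In cells with P of 25 or more, Hsd11b2 was found in 2.92% and 4.63%. By the gate itself, 126 of 280 members (45.0%) in the library labelled WT held Spon1 alone, 62 (22.1%) Hsd11b2 alone and 32 (11.4%) both, while in the library labelled cKO the numbers were 210 (34.1%), 104 (16.9%) and 223 (36.3%) of 615.

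Against the other cells with P under 25 of the same library, 10 of 11416 genes with 50 or more UMIs in each library were past 2-fold higher in members of both libraries (0.0876% of the genes compared), with the 15 gate genes left out. Those described here are Pappa2, Kdr, Lgr5, Plxna4, Fgf9, Fbn2, Sfrp2, Tnc and Pigz. Each was found in a minority of members of the library labelled WT, Pappa2 in 13.2%, Kdr in 23.2% and Lgr5 in 13.6%, so the ratios need not describe most members. Lgr5, Pappa2 and Kdr also name another group of FAPs chosen from these data, whose overlap with members is not given here. The rule chose the cells by their own RNA, so these ratios describe the cells and are no test. Taken alone, the library labelled WT had 85 genes (0.745%) past 2-fold higher and the library labelled cKO 36 (0.315%). The median log2 ratio of all genes was -0.13 and -0.03. Lower past 2-fold in both libraries were 26 genes (0.228%), 295 (2.58%) in the library labelled WT and 118 (1.03%) in the library labelled cKO. With TMM scaling (the trimmed mean of M values), which moved the median of the library labelled WT by 0.11, the 85 higher and 295 lower genes became 107 and 223, so the share that was higher went from 22.4% to 32.4%.

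The genes are given by the roles of their proteins, secreted first. Pappa2, a protease that cuts IGF-binding proteins, was 5.56-fold higher in members of the library labelled WT, at 34.04 against 6.12 CPM (log2 ratio 2.48, 2.15 to 2.80). It was 3.74-fold higher in the library labelled cKO, at 10.9 against 2.90 (1.90, 1.44 to 2.37). Sfrp2, a secreted Wnt modulator, was at 886 against 271 and at 101 against 48.3. Fgf9, a fibroblast growth factor, was at 9.98 against 1.91 and at 9.32 against 3.81. Of the receptors, Kdr (VEGF receptor 2) was at 37.1 against 8.09 (log2 ratio 2.20, 1.90 to 2.49) and at 10.2 against 3.41 (1.58, 1.11 to 2.03). Lgr5, a receptor for R-spondins, was at 26.4 against 7.21 and at 13.2 against 4.75, and Plxna4, a semaphorin receptor, at 5.38 against 2.06 and at 15.03 against 5.29. Of the matrix genes, Fbn2 (fibrillin-2) was at 202 against 66.3 and at 52.9 against 24.0, and Tnc (tenascin-C) at 36.1 against 11.3 and at 68.7 against 33.1. Pigz, an enzyme of GPI-anchor synthesis, was at 4.61 against 2.30 and at 3.06 against 1.27.

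Single cells and the gate set part of these levels. With 2 different gate genes required, the log2 ratios of Lgr5 and Fgf9 in the library labelled cKO turned to -2.24 and -2.59, and without Spon1 in the gate those of Pappa2, Lgr5 and Fgf9 there turned to -1.06, -1.60 and -1.01 and that of Pigz in the library labelled WT to -0.39. Pappa2 was found in 37 members of the library labelled WT and in only 12 of the library labelled cKO, where 29 of its 78 UMIs lay in 1 cell. Of the 95 Lgr5 UMIs in members of the library labelled cKO, 54 lay in 1 cell, and without the highest cell of each group the log2 ratio was 0.46 in place of 1.48. Fgf9 had 20 of 67 UMIs in 1 cell there and a ratio of 0.91 without it. Pappa2, Kdr, Plxna4, Fbn2 and Tnc stayed past 2-fold in both libraries without their highest cells. With 2 different gate genes required, 4 of the 10 genes were past 2-fold in both, and Kdr, Fbn2 and Tnc were not among them. Fbn2 was also not past 2-fold in both libraries in thinned cells, nor Tnc against other cells without a gate UMI. In cells thinned to 6000 UMIs a Kdr UMI was found in 12.6% of members against 3.29% of other cells in the library labelled WT, and in 4.80% against 1.81% in the library labelled cKO. Fbn2 was found in 37.8% against 18.04%, and in 12.1% against 7.81%. A cell without a UMI may still carry the RNA, and without thinning Fbn2 was found in 47.5% and 18.2% of members. In cells with P of 25 or more, 8 of the 10 genes were lower than in the other cells with P under 25 of both libraries, and Kdr was found in 1.92% and 1.20% of thinned cells. Sfrp2 and Pigz were the exceptions, with Sfrp2 found there in 70.8% and 29.3% of thinned cells.

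**Figure D2:**
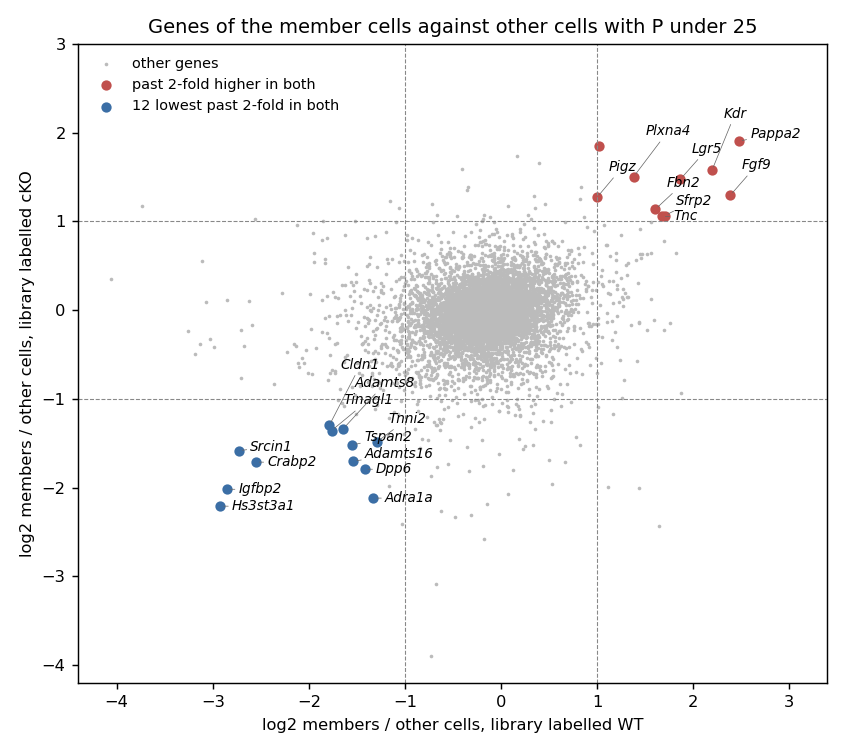
Log2 ratio of CPM in members over other cells with P under 25, library labelled WT (x axis) against library labelled cKO (y axis), each point 1 of 11416 genes and the dashed lines at 2-fold. The 10 red points at the upper right were past 2-fold in both, led by Pappa2 at 2.48 and 1.90, and the 12 at the lower left had the lowest ratios of the 26 genes past 2-fold lower in both.

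Of these 10 genes, 5 matched a single promoter of the RefSeq table (build GRCm38.p6), which holds 300 bases from 250 before to 50 after the start, on the strand of the gene. The promoters of the 4 with the largest ratios are shown because these genes shared their direction in members. Pappa2 lies at chr1:158958126-158958425 (minus strand), Kdr at chr5:75978406-75978705 (minus), Fgf9 at chr14:58072436-58072735 (plus) and Sfrp2 at chr3:83766071-83766370 (plus). Each runs 5′ to 3′ in lower case, and the capitals mark CG, the dinucleotide of CpG islands, which reads the same on both strands:
Pappa2: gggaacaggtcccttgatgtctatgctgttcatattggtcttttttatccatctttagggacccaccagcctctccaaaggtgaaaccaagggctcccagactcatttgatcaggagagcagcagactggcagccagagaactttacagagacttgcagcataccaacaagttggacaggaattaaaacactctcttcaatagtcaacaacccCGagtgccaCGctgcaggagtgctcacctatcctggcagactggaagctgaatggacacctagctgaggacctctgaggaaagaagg
Kdr: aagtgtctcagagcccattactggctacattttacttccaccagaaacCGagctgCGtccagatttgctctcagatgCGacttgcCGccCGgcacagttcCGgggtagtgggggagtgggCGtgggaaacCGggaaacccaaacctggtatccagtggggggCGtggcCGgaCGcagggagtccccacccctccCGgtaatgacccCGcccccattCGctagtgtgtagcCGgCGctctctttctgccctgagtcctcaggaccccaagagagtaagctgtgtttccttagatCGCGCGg
Fgf9: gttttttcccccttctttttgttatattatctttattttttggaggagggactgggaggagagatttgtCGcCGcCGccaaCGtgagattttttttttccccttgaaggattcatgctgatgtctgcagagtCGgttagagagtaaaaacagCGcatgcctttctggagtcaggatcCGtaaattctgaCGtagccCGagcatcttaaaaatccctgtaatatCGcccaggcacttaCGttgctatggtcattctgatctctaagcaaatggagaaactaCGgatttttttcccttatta
Sfrp2: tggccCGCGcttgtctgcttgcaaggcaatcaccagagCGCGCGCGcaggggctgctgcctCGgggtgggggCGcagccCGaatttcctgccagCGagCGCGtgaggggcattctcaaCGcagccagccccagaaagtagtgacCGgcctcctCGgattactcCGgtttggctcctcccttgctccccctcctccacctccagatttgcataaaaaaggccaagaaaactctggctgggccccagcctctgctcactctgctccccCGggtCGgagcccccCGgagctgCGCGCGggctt
The Pappa2 promoter held 2 CG dinucleotides, fewer than the median of 7 over all 32851 promoters of the table, and 85.9% of them held as many or more. Kdr held 19, Fgf9 12 and Sfrp2 22, counts reached by 28.1%, 39.6% and 23.1% of promoters. Promoters of the genes compared between libraries were richer in CG than the table as a whole, with a median of 22, which Kdr and Fgf9 did not reach and Sfrp2 equalled. The letters TATAAA, searched on both strands, were in none of the 5, in 13.6% of all promoters and in 6.60% of those of the genes compared between libraries.

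Each of the described genes was higher in members with Spon1 alone than in members with Hsd11b2 alone of the library labelled WT, and each but Sfrp2 and Pigz in the library labelled cKO. Kdr in the library labelled WT was at 49.9 CPM in the 126 members that held Spon1 alone and at 1.17 in the 62 that held Hsd11b2 alone. Pappa2 was at 32.9 and 8.17, Fbn2 at 266 and 63.0, and Sfrp2 at 1040 and 272. Members with Hsd11b2 alone were near the other cells with P under 25 for Fbn2 (66.3), Sfrp2 (271) and Pappa2 (6.12), and below them for Kdr (8.09). Pappa2 in the library labelled cKO was at 19.2 in members with Spon1 alone and 0.837 in those with Hsd11b2 alone, and Fbn2 at 81.2 and 29.3. Sfrp2 went the other way there, at 85.2 and 154, and Kdr was closer, at 15.2 and 10.9. With Spon1 left out of the gate, 1 of the 10 genes, Plxna4, was past 2-fold in both libraries, and 6 of 10 were higher in both. With Hsd11b2 left out 9 of 10 were past 2-fold.

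**Figure D3:**
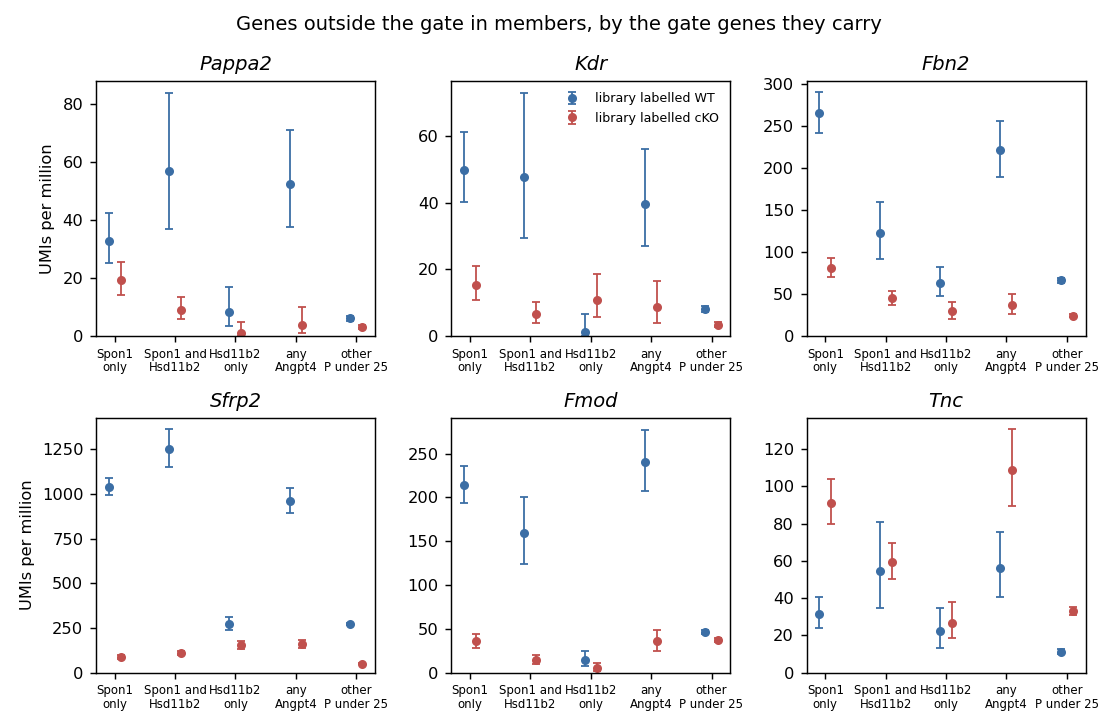
CPM (y axes) of 6 genes in members grouped by the gate genes they carry (x axes, with the other cells with P under 25 last), with exact Poisson 95% intervals for counting error. In the library labelled WT, Kdr was at 49.9 in cells with Spon1 alone and 1.17 in cells with Hsd11b2 alone; Sfrp2 showed the reverse order in the library labelled cKO, at 85.2 and 154.

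The levels also differed by how many gate UMIs a cell held. Among cells that met the other limits in the library labelled WT, Kdr was at 6.96 CPM with no gate UMI, 20.4 with 1, 29.5 with 2, 36.9 with 3 to 4 and 53.5 with 5 or more. In the library labelled cKO it was at 2.93, 3.57, 7.33, 5.20 and 14.3. Pappa2 in the library labelled cKO stayed between 1.53 and 3.64 up to 4 gate UMIs and was at 18.6 with 5 or more. The last class held the cell with 29 of the 78 Pappa2 UMIs of members labelled cKO. Cells with 1 gate UMI, just outside the gate, were nearer to members than cells with none for Kdr and Fbn2 in the library labelled WT (Fbn2 at 56.3, 115 and 154 with 0, 1 and 2). Against only those cells that met the Cxcl14 and adipocyte limits, 3 of the 10 genes, Pappa2, Kdr and Plxna4, were past 2-fold in both libraries and all 10 were higher. Some of these genes were lower in the Cxcl14-rich gate-positive cells of the library labelled WT than in its members. Pappa2 was at 1.20 CPM in those cells, Kdr at 4.80 and Sfrp2 at 41.4. Fgf9 had no UMI there, which does not show that it was absent. The other genes, and the library labelled cKO, are not compared here.

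**Figure D4:**
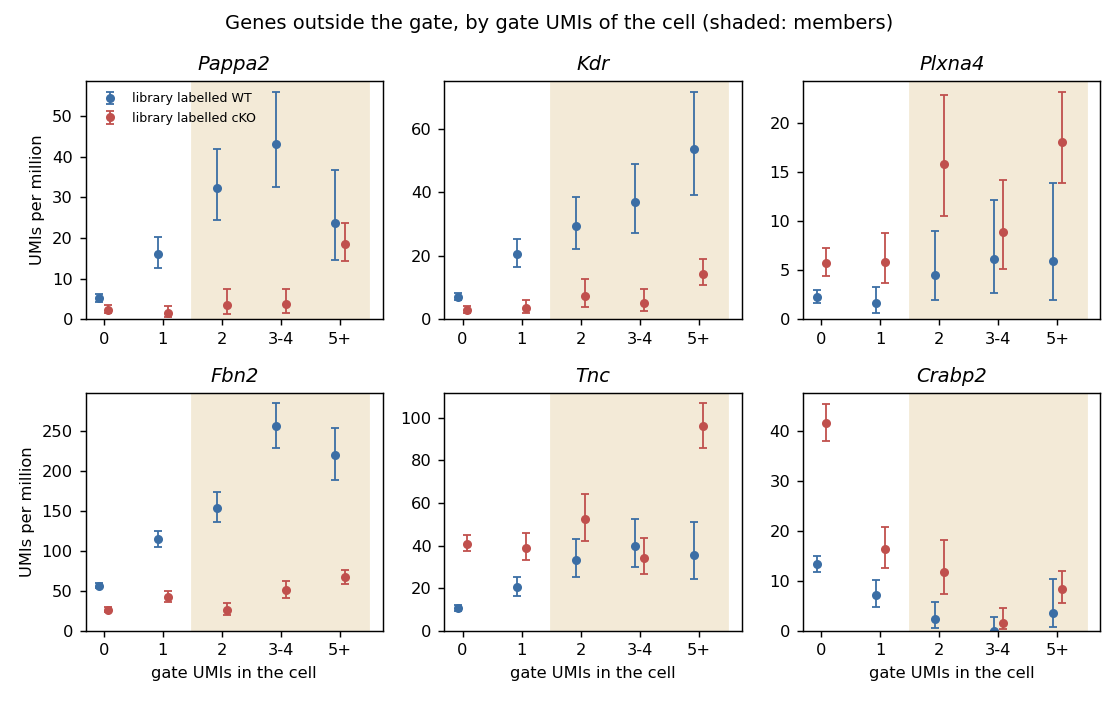
CPM (y axes) of 6 genes outside the gate in cells that met the limits on P, Cxcl14 and adipocyte genes, by gate UMIs of the cell (x axes; members shaded), with exact Poisson 95% intervals for counting error. Kdr in the library labelled WT lay between 6.96 with no gate UMI and 53.5 with 5 or more, and Crabp2 was highest in cells with no gate UMI, at 13.3 and 41.5.

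The 12 genes with the lowest ratios included Crabp2, Tnni2 and Cldn1. Crabp2, which carries retinoic acid to its receptors, was at 1.79 CPM in members against 10.5 in other cells of the library labelled WT (log2 ratio -2.55, -3.88 to -1.50) and at 7.37 against 24.2 in the library labelled cKO (-1.71, -2.15 to -1.31). Cldn1, a claudin of sealing tight junctions, was at 2.05 against 7.06 and at 4.87 against 11.96. Tnni2, the troponin I of fast muscle fibres, was at 4.10 against 10.0 and at 5.43 against 15.2. Hs3st3a1, a heparan sulfate sulfotransferase, had the lowest ratio, at 1.02 against 7.76 and at 0.557 against 2.57, from 4 UMIs in members of each library. Igfbp2, an IGF-binding protein, had 1 and 9 UMIs in members, and the protease gene Adamts16 2 and 4. The others were Srcin1, Tspan2, Dpp6, Tinagl1, Adamts8 and Adra1a, the last an adrenergic receptor. Tinagl1 and Adamts8 had 0 UMIs in members of the library labelled WT and were 3.39-fold and 3.12-fold lower by the floor of 3 counts over the group. The intervals of their log2 ratios reached up to -1.43 and -1.31. Adra1a had 0 in the library labelled cKO and was 4.34-fold lower by the same floor, with an interval of the log2 ratio up to -1.77. Of the other cells' UMIs, 43 of 79 of Adamts8 and 18 of 61 of Igfbp2 in the library labelled WT lay in 1 cell each, so these ratios leaned on few cells.

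The pathways of the gate genes were counted outside the gate. Of 19 measured glucocorticoid and mineralocorticoid genes none was past 2-fold in members of both libraries, and their median log2 ratios (-0.12 and -0.10) lay near those of all genes. The 3 with the largest shared ratio were glucocorticoid-induced genes that were lower in members of both libraries: Ddit4 (log2 ratio -0.76 and -0.76), Fkbp5 (-0.90 and -0.42) and Tsc22d3 (-0.53 and -0.36). Tsc22d3 was at 154 CPM in members with Spon1 alone and 287 in those with Hsd11b2 alone of the library labelled WT, and at 254 and 239 in the library labelled cKO. Of 16 angiopoietin and VEGF genes, Kdr was the single gene past 2-fold higher in both, beside 0.0876% of all genes. Pgf, a VEGF-family ligand, had log2 ratios of -2.01 and -0.70, and Angpt1, the main Tie2 agonist, 0.39 and 0.40. Of 12 tight junction genes Cldn1 was past 2-fold lower in both, beside 0.228% of all genes, and none was higher in both. Cldn10 was past 2-fold higher in the library labelled WT and Cldn22 in the library labelled cKO, beside 0.745% and 0.315% of all genes. Of 16 spondin, R-spondin and thrombospondin genes none passed in both, with Thbs2 at 0.69 and 0.53 and Comp at -0.63 and -1.02. Of 17 acute-phase genes none passed in both, with Saa1 at -1.48 and -0.71 and Il6 at 0.60 and 0.73.

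Growth factor and matrix lists were counted in the same way, beside 0.0876% of all genes past 2-fold higher and 0.228% lower in both libraries. Of 30 Wnt genes, Sfrp2 and Lgr5 were past 2-fold higher in both libraries and none lower, with median log2 ratios of 0.13 and 0.11. Without the highest cells both were under 2-fold in the library labelled cKO, at log2 ratios of 0.90 and 0.46. With 2 different gate genes Lgr5 turned to -2.24 there, and to -1.60 without Spon1 in the gate. Alone, the library labelled WT had 6 Wnt genes past the limit, the secreted modulators Sfrp1, Sfrp2, Sfrp4 and Dkk2, the Wnt-induced Wisp2 and the receptor Lgr5, beside 0.745% of all genes, and the library labelled cKO had 2, Sfrp2 and Lgr5, beside 0.315%. Sfrp4 was at 1315 against 526 CPM in the library labelled WT and at 653 against 450 in the library labelled cKO. Of 15 IGF genes Pappa2 was higher and Igfbp2 lower in both. Inhba, an activin subunit of the 40 BMP and TGF-beta genes, had log2 ratios of -0.73 and -1.87. Of 16 retinoic acid genes Crabp2 was lower in both. None of 29 collagen genes and none of 15 small proteoglycan genes passed in both, and Col1a1, the main chain of type I collagen, had ratios of 0.53 and 0.38. None of 12 chemokine, 16 complement, 16 neurotrophic, 19 basement membrane, 27 interferon-response and 9 salt-transport genes passed in both libraries.

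Markers of other cell types were read in the same way. Of the 5 endothelial markers, Cdh5, Cldn5 and Emcn were at 0 in members of the library labelled WT. In members of the library labelled cKO only Cldn5 was at 0, and Cdh5 was at 0.139 CPM. The summed endothelial level was 5.12 in members and 6.06 in other cells of the library labelled WT, and 11.1 and 10.8 in the library labelled cKO. Pecam1 was the most abundant, at 3.84 against 2.58 and at 5.84 against 6.49. The 6 immune markers summed to 7.68 and 6.09, and to 7.93 and 7.83, with Ptprc, Adgre1 and Cd3e at 0. The 5 muscle stem markers summed to 53.8 and 43.9, and to 28.7 and 27.3, nearly all of it Vcam1, and Pax7, Myf5 and Myod1 were at 0. The 5 Schwann markers summed to 37.6 and 21.6, and to 91.6 and 76.2, most of it S100b, with Sox10 at 0 in members of both libraries. The 6 mural markers summed to 94.7 and 103, and to 84.7 and 64.9. In the library labelled cKO the channel genes Abcc9 (log2 ratio 1.74) and Kcnj8 (1.39) were past 2-fold higher in members, beside 0.315% of all genes. Their log2 ratios in the library labelled WT were 0.17 and 0.83. Cspg4, the most abundant of the 6 in members labelled cKO, was lower in members of the libraries labelled WT and cKO (-0.75 and -0.57).

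The tendon markers went in opposite directions. All 6 summed to 239 CPM in members and 83.4 in other cells of the library labelled WT, where Fmod (fibromodulin) was the most abundant, and to 111 and 190 in the library labelled cKO, where Tnmd (tenomodulin) was. Fmod was at 214 in members with Spon1 alone and 14.0 in members with Hsd11b2 alone of the library labelled WT. The 5 synovial lining markers summed to 42.2 and 87.7, and to 83.1 and 133. Among them the lubricin gene Prg4 was past 2-fold lower in members of both libraries, beside 0.228% of all genes. The 7 perineurial markers summed to 36.6 and 52.2, and to 47.0 and 69.8. The 5 myofibre markers summed to 41.2 and 58.6, and to 19.9 and 30.0, and the 5 mesothelial markers to 1.79 and 1.82, and to 1.53 and 4.24. The 5 erythroid markers summed to 6.91 and 53.2, and to 48.4 and 24.0, with 1332 of 1756 UMIs of the other cells in the library labelled WT, and 249 of 348 UMIs of the members in the library labelled cKO, in 1 cell each. The 6 adipocyte markers outside the gate were alike, at 1123 and 1120, and at 1054 and 1056, nearly all Lpl. Whether such cells took part in the differences above was not tested.

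Between the libraries, within members, 150 of 9884 genes with 50 or more UMIs (1.52%) were past 3-fold higher in the library labelled cKO and 81 (0.820%) past 3-fold lower. In the other cells with P under 25, 322 of 12679 genes (2.54%) were past 3-fold higher and 198 (1.56%) lower. The median log2 ratio was 0.20 over all genes in members and 0.10 in other cells, and TMM scaling moved the member ratios by -0.21 and turned the split of 150 against 81 into 115 against 128. The share that was higher thus went from 64.9% to 47.3%. Genotype, library, mice and sequencing could not be told apart in this comparison.

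The genes lower in the library labelled cKO included secreted and matrix genes. Sfrp2 was at 886 CPM in members labelled WT and 101 in those labelled cKO (log2 ratio -3.13, -3.25 to -3.01), against -2.49 in other cells. Fmod, a small proteoglycan of collagen fibrils, was at 169 and 19.6 (-3.10, -3.38 to -2.84), against -0.30 in other cells. Nov, a CCN-family matrix protein, was at 304 and 47.4 (-2.68), against -1.12 in other cells. Tgfbi, a TGF-beta-induced matrix protein, was at 818 and 127 (-2.69) and Cpz, a carboxypeptidase that binds Wnt, at 300 and 43.7 (-2.78), with -2.75 and -2.34 in other cells. Bmp5 was at 37.6 and 4.59, Enpp1, which makes pyrophosphate, at 27.6 and 4.31, and the angiotensin receptor gene Agtr1a at 47.6 and 6.40. The others of the 12 with the lowest ratios at 100 or more UMIs were Creb3l3, Fmo2, Clec1a and Rtl3, with log2 ratios of -2.82 to -2.59. Of the genes higher in members, Pappa2 (-1.65), Kdr (-1.87) and Fbn2 (-1.94) were also lower in the library labelled cKO, while Plxna4 (1.48) and Tnc (0.93) were higher.

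Among genes with 100 or more UMIs in members, the 12 with the highest ratios in the library labelled cKO lay between 1.02 and 19.7 CPM in members labelled WT. Bdnf, a neurotrophin, was at 1.02 CPM (4 UMIs) and 15.2 (109 UMIs), a log2 ratio of 3.89 (2.49 to 5.79), against 1.72 in other cells. Pcsk2, a prohormone convertase, was at 1.28 and 24.9 (4.28, 3.03 to 5.92), against 4.14. Adam12, a metalloprotease, was at 19.7 and 150 (2.93, 2.60 to 3.28), against 3.01, and Trabd2b, a Wnt-inactivating protease, at 8.70 and 79.2 (3.19), against 2.44. Masp1, a complement protease, was at 4.10 and 34.8, the ephrin receptor gene Epha5 at 1.79 and 17.9, and Pla1a, a phospholipase, at 3.33 and 38.8. Gm26825 and Gucy1a2 had log2 ratios of 3.71 and 3.18. Lcn2, an acute-phase siderophore binder, was at 3.84 and 34.9, with 11 of its 15 UMIs in members labelled WT in 1 cell, and its log2 ratio was 3.19 in members and 6.63 in other cells. The ratio in members was 4.85 without the highest cells and turned to -0.087 with 2 different gate genes required. Hbb-bs and the cycling gene Ube2c also passed. In members labelled cKO 190 of 256 Hbb-bs UMIs and 50 of 159 Ube2c UMIs lay in 1 cell each.

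**Figure D5:**
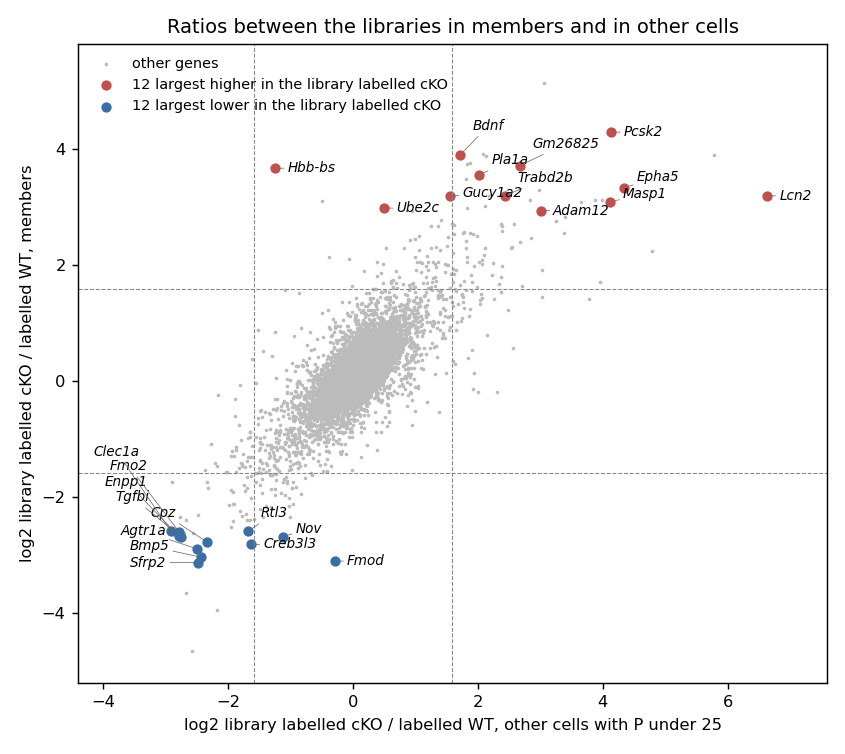
Log2 ratio of CPM, library labelled cKO over library labelled WT, in other cells with P under 25 (x axis) against members (y axis), each point a gene with 50 or more UMIs in members and the dashed lines at 3-fold. Fmod stood apart, at -3.10 in members and -0.30 in other cells, as did Hbb-bs, whose member UMIs lay mostly in 1 cell.

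Most library differences were shared with the other cells. Of the 231 genes past 3-fold in members, 226 had the same sign in other cells and 116 (50.2%) were past 3-fold the same way there too, which is 62.0% of the 187 genes past 3-fold in other cells within the same 9884. The 5 of opposite sign were Flt1, Cox6b2, Hbb-bs, Hhip and Gria4, chosen here after their values were seen. These lists stand beside 1.52% of all genes higher and 0.820% lower, a median of 0.20 over all genes and the TMM shift of -0.21. Of 26 interferon-response genes, 4 were past 3-fold higher in members labelled cKO (Isg15, Ifi27l2a, Psmb9 and Ifit1) and none lower, with a median log2 ratio of 0.87. Of 19 acute-phase genes, Lcn2, Il6ra, Saa1 and Saa3 were higher and Il33 lower. Saa3 was 14.9-fold higher on the floor of 3 counts, a log2 ratio of 3.89 with an interval from 3.56. The ratio was 2.28 without the cell that held 55 of the 82 Saa3 UMIs. The 13 neurotrophic genes had a median of 0.76, with Bdnf among the higher and none past 3-fold lower. Of 35 BMP and TGF-beta genes, Inhbb, Bmp7, Gdf11 and Ltbp1 were higher and Bmp5 and Inhba lower. Of 15 angiopoietin and VEGF genes, Flt1 and Pgf were higher and Kdr lower. Of 28 Wnt genes, Wnt4 was higher and Sfrp2 lower, and of 14 IGF genes Igf2 was higher and Pappa2 and Stc1 lower. Of 19 glucocorticoid genes Lcn2 alone passed, and Smn1, the survival motor neuron gene, was at 18.7 and 24.1 CPM in members (log2 ratio 0.37, -0.04 to 0.78). Of 6 cycling genes, Cdk1 and Ccnb1 were past 3-fold higher, and cells with 2 or more UMIs of these 6 genes made up 1.43% and 3.41% of members. Without them 131 genes were past 3-fold higher and 86 lower.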

How the data were processed

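Gene-by-cell tables of UMI counts were deposited, 1 per genotype, with 31053 genes. According to the study's methods and the submitters' processing notes, the authors made 10x 3′ libraries, used bcl2fastq 2.20.0, FastQC 0.11.7 and Cell Ranger 3.1.0 with mm10, and removed poor cells, doublets and cells with non-FAP markers with Seurat 3.2.1 in R 3.6.1. The thresholds were not given in the sources used here, and no further doublet caller was run. The counts were not rescaled by the authors.

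For each class of cells the UMIs of a gene were added up and expressed as CPM. Ratios had conditional binomial intervals and levels Poisson intervals, both exact, and shares had Clopper-Pearson intervals, all at 95%. A sum of 0 was set to 3 counts. Members were compared with other cells with P under 25 at 50 or more UMIs (both classes summed) in each library and a 2-fold limit, and between libraries at 50 or more UMIs (both libraries summed) and a 3-fold limit. For depth, cells were thinned to 6000 UMIs. Named genes were up to 15 higher and 12 lower past 2-fold in both libraries, 12 in each direction between libraries at 100 or more UMIs, 3 of each of the gene lists, and the label and gate genes. Members and lists were chosen with earlier results of these data known. Python 3.11.15, numpy 2.4.6, pandas 2.3.3, scipy 1.17.1 and edgeR 4.0.16 (TMM factors only, no test) were used. The ratio code was tested on simulated data. Other gates, limits and comparators were tried. Some items are not reported here.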

Additional observations from a re-analysis of the deposited data

Results flagged for a closer look

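For 10 genes the ratio of members to other cells with P under 25 was past 2-fold in opposite directions in the libraries labelled WT and cKO (0.0876% of the 11416 genes compared). With 1 library each, none of these differences was tested. The log2 ratios, the library labelled WT first, were 1.44 and -2.004 for Sema3a, a repulsive axon guidance ligand, and -1.52 and 1.005 for Hhip, which binds hedgehog ligands. They were -1.15 and 1.23 for Ccbe1, a lymphangiogenesis factor, and -2.57 and 1.02 for Gria4, a glutamate receptor subunit. Slc16a3, a lactate transporter, had 1.11 and -1.998, Mbnl3, a splicing regulator, 1.16 and -1.18, and Frmd3 -1.06 and 1.15. Frmd3 had 3 UMIs in members of the library labelled WT (interval -3.39 to 0.56) and Mbnl3 had 6 in members of the library labelled cKO (-2.69 to 0.04), so both intervals crossed 0. Hhip rested on the most UMIs of these, with 68 and 551 in members. Without the highest cells 4 of these ratios were under 2-fold, those of Hhip (0.94) and Gria4 (0.89) in the library labelled cKO and of Slc16a3 (0.95) and Mbnl3 (0.76) in the library labelled WT. A further 3 genes had most of the UMIs of a group in 1 cell. Hbb-bs, a haemoglobin gene, had -3.73 and 1.18, and -1.54 and 0.08 without the highest cells. The histone genes Hist1h1b (1.65 and -2.43) and Hist1h2ap (1.01 and -1.10) had all 20 and all 15 of their member UMIs in 1 cell of the library labelled WT.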

How the results depend on the processing

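The share of members was higher in the library labelled cKO under each gate tried. It was, for WT and then cKO, 15.1% and 22.2% with 1 or more gate UMIs, 3.63% and 10.3% with 3 or more, 1.73% and 6.53% with 2 different gate genes, 2.83% and 6.94% without Spon1, 4.68% and 10.4% without Hsd11b2, and 5.85% (WT) without Angpt4. It was 2.94% and 9.78% in thinned cells, 3.80% and 11.8% with 2 gate UMIs per 10000, 5.26% and 11.3% with Cxcl14 under 2, 8.19% and 17.1% under 10, 10.1% and 27.6% with no Cxcl14 limit, and 9.17% and 19.7% of cells with P under 25. Dropping both limits, added after seeing the data, gave 10.2% and 30.0%. Also added after seeing the data were leaving out the highest cells and the share of Spon1 cells with Hsd11b2 without thinning, which was 17.2% and 51.1%.

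Counts moved with the limits. Genes higher in members of both libraries numbered 20 at 20 UMIs, 4 at 200, 1 at 3-fold, 43 at 1.5-fold and 6 in thinned cells. Lower genes numbered 54, 7, 3 and 171 at the same limits, 44 against cells within the Cxcl14 and adipocyte limits, 42 against cells without a gate UMI, 74 with 2 different gate genes, 56 with 3 or more gate UMIs, 58 without Spon1 and 78 without Hsd11b2. Between libraries, higher genes numbered 332 at 20 UMIs, 45 at 200, 434 at 2-fold, 91 at 4-fold and 88 thinned, and lower genes 141, 27, 250, 42 and 47, and 128 with TMM.

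Some directions turned. With 2 different gate genes the log2 ratio in the library labelled cKO was -2.24 for Lgr5 and -2.59 for Fgf9, and Lcn2 between libraries was -0.087. Without Spon1 it was -1.06 for Pappa2, -1.60 for Lgr5 and -1.01 for Fgf9 in the library labelled cKO, and -0.39 for Pigz in the library labelled WT. The cause was not tested. Of the other values of named genes, 385 of members over others and 200 between libraries stayed within their counting interval, and 86 and 39 moved outside it. For 7 values of lower genes no ratio could be had, since no UMI was left. No paired analysis was possible because there was a single library of each genotype. Depth limits the scarce genes most, since several of the lower genes rested on under 10 UMIs in members.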
